A study of Mus musculus with 18 samples.

Results

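Gene expression was compared between KPCA.B cells labelled as carrying the hairpin shNdufa5_2 and cells with the control hairpin shControl, both kept in medium conditioned by senescent cells. The comparison covers 6 of the 18 libraries of the series, shNdufa5_2_SCM replicates 1 to 3 against shControl_SCM replicates 1 to 3. Of the 54532 genes in the table, 11084 had a mean of at least 1 FPKM (fragment counts scaled to transcript length and library size) over the 18 libraries and were tested. The labels give KPCA.B as mouse high grade serous ovarian cancer cells. They also name shControl cells Ndufa5 wild type and shNdufa5_2 cells Ndufa5 knockdown 2. The senescent medium (SCM) came from cells driven into senescence by the platinum drug cisplatin, and the proliferative medium (PCM) from cells given DMF as the control treatment. Each was mixed with fresh high-glucose medium holding serum, EGF and an insulin, transferrin and selenium supplement, and all 6 groups carried a hairpin. The series was designed to ask how secretions of senescent cells act on transcription in bystander cells and how Ndufa5 bears on it. The remaining 12 libraries are shControl and shNdufa5_2 in PCM and the other hairpin, shNdufa5_1, in both media.

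The product of Ndufa5 is a small supernumerary protein of complex I, the enzyme that takes electrons from NADH, feeds them into the mitochondrial respiratory chain and pumps protons across the inner membrane. Complex I is built from an N module that binds NADH, a Q module that passes electrons to ubiquinone and a membrane arm that moves protons, and Ndufa5 sits in the Q module. Senescent cells stop dividing but stay active and secrete cytokines, chemokines, proteases and matrix proteins, and neighbouring tumour cells can answer with inflammatory, interferon and stress programmes.

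Depth ran from 13.8 to 38.7 M fragments (M, mega) in the 6 libraries, and shControl_SCM replicate 2 was the deepest. Across genes, libraries within a group had r of 0.979 to 0.99 with each other. No label says that replicates came from separate cultures, or whether the hairpin cells were clones or pools, so the tests see only the spread among these libraries, which may be technical. Keratins marked the cells as epithelial, with Krt18 at 515 to 729 FPKM in the 6 libraries, and the Müllerian factor Pax8 stood at 9.43 to 15.3 FPKM. Of 15 markers listed for this cancer 10 passed the expression filter, Wfdc2 at 203 to 279 FPKM and Cd24a at 36.6 to 45.6 FPKM among them, while Muc16 and Wt1 were listed at 0 in all 6 libraries and Epcam reached at most 0.289 FPKM. Of the 10 immune cell markers, 5 were at 0 in all 6 libraries, Ptprc, Cd3e and Cd79a among them, but Cd14 stood at 5.34 to 7.47 FPKM and Cd68 at 5.92 to 10.2 FPKM. Of the 8 endothelial markers 4 were at 0, and Plvap, the only one tested, stood at 5.67 to 8.34 FPKM in controls and at 7.90 to 10.5 FPKM in the libraries labelled shNdufa5_2 (log2 difference 0.38, adjusted p = 0.0298). The groups overlapped, and leaving out shNdufa5_2_SCM replicate 2 or 3 or shControl_SCM replicate 1 or 2 ended that call (0.26 to 0.38).

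The 4 promoter sequences that follow belong to the heat shock genes Hspa1b, Hspb1 and Hsph1 and the interferon-responsive chemokine gene Cxcl10. All 4 fell in the libraries labelled shNdufa5_2 in SCM. They are examples that hold the marked motif and do not stand for all genes that fell. Cryab and Ccl5, which fell further than Hsph1 and Cxcl10, are not shown. Each run holds the 250 bases before the RefSeq start of the gene (GRCm38.p6), 5′ to 3′ on the strand of the gene. Capitals mark a pair of facing heat shock units, GAANNTTC or TTCNNGAA, in the first 3 and an interferon response element, GAAANNGAAA or its reverse complement TTTCNNTTTC, in Cxcl10.
Hspa1b, chr17:34959239-34959488, minus strand: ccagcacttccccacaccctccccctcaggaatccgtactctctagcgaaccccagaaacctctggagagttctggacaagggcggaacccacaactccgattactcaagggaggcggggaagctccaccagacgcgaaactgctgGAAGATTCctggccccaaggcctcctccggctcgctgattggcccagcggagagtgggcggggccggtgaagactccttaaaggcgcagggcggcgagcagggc
Hspb1, chr5:135887669-135887918, plus strand: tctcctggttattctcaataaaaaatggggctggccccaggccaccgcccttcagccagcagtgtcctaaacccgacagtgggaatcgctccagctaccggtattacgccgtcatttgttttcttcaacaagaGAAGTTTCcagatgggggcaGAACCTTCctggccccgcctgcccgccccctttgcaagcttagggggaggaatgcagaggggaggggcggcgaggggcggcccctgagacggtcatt
Hsph1, chr5:149636337-149636586, minus strand: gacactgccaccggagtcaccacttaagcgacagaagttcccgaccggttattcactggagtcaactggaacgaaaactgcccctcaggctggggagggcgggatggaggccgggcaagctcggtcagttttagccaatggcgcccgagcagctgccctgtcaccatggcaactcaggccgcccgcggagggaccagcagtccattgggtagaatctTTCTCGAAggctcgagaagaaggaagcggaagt
Cxcl10, chr5:92348890-92349139, minus strand: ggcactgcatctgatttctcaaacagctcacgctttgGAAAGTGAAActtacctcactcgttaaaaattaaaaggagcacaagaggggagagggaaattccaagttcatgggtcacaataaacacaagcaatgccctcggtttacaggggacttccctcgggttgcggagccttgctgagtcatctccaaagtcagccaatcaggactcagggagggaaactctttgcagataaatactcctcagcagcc
The heat shock pair stood once in the Hspa1b and Hsph1 windows and 2 times in that of Hspb1. Of 32851 RefSeq promoters, each read over the same 250 bases and on both strands, 4218 (12.8%) held the heat shock pair and 978 (2.98%) the interferon element. Of the tested heat shock genes with a promoter in that table, 6 of 13 (46.2%) held the pair, and of the interferon-stimulated genes 5 of 18 (27.8%) held the interferon element. The inflammatory secretome list, described below, held the interferon element in 1 of 14 (7.14%) and the heat shock pair in none. A match describes letters in these windows and is no evidence of binding.

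Ndufa5 itself (ENSMUSG00000023089, chromosome 6, 24518666 to 24528013, minus strand, GRCm38) was checked first. It stood at 22.3, 26.2 and 20.9 FPKM in the shControl libraries in SCM and at 14.6, 16.1 and 20.2 FPKM in those labelled shNdufa5_2. The groups did not overlap, but shNdufa5_2_SCM replicate 3 lay close under the lowest control. On the scale of log2(FPKM + 1), used for every difference here, it fell by 0.43 (SE 0.12, adjusted p = 0.0125), which left 73.4% of the control mean. An exact two-sided permutation test of the 6 values gave p = 0.1, and no split of 3 and 3 values can give less. The call was lost without shNdufa5_2_SCM replicate 1 (-0.33, adjusted p = 0.0634) or without shControl_SCM replicate 2 (-0.34, adjusted p = 0.0656). It was also lost when libraries were scaled to the same FPKM sum (-0.15, adjusted p = 0.336) and after removal of a trend with GC content and transcript length (-0.32, adjusted p = 0.0519). In PCM the means were 18.8 FPKM with shControl and 17.5 FPKM in the libraries labelled shNdufa5_2 (log2 difference -0.08, adjusted p = 0.647). The shNdufa5_1 libraries in SCM had a mean of 6.49 FPKM. Directions below are therefore those of libraries with most of their Ndufa5 transcript left.

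Across all genes, 3758 of 11084 (33.9%) passed an adjusted p under 0.05, 1545 higher (13.9%) and 2213 lower (20.0%) in the libraries labelled shNdufa5_2, around a median difference of -0.01. Most of the changes were small. Only 83 genes (0.749%) rose and 230 (2.08%) fell by at least 0.5, and 8 (0.0722%) rose and 18 (0.162%) fell by at least 1. Groups of libraries did not overlap for 4793 genes (43.2%), 3559 of them called (32.1% of all). The split of calls depended on scaling, with 1750 higher and 1273 lower after quantile normalization. Scaling each library to the same FPKM sum gave 4753 higher and 184 lower. Sum scaling moved the median of all genes to 0.23, and to 0.12 with Gm23935 left out of the sum, so changes are stated relative to the median gene. Of the 140 single gene results described here, 28 kept their direction but lost their call under sum scaling. A further 2, mt-Nd2 and H2-K1, changed sign and lost theirs, and 5 gained a call. Gm23935, a short RNA gene model, took 71704, 105411 and 71195 FPKM in the shControl libraries in SCM and 26742, 48813 and 42188 FPKM in those labelled shNdufa5_2.

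**Figure D1:**
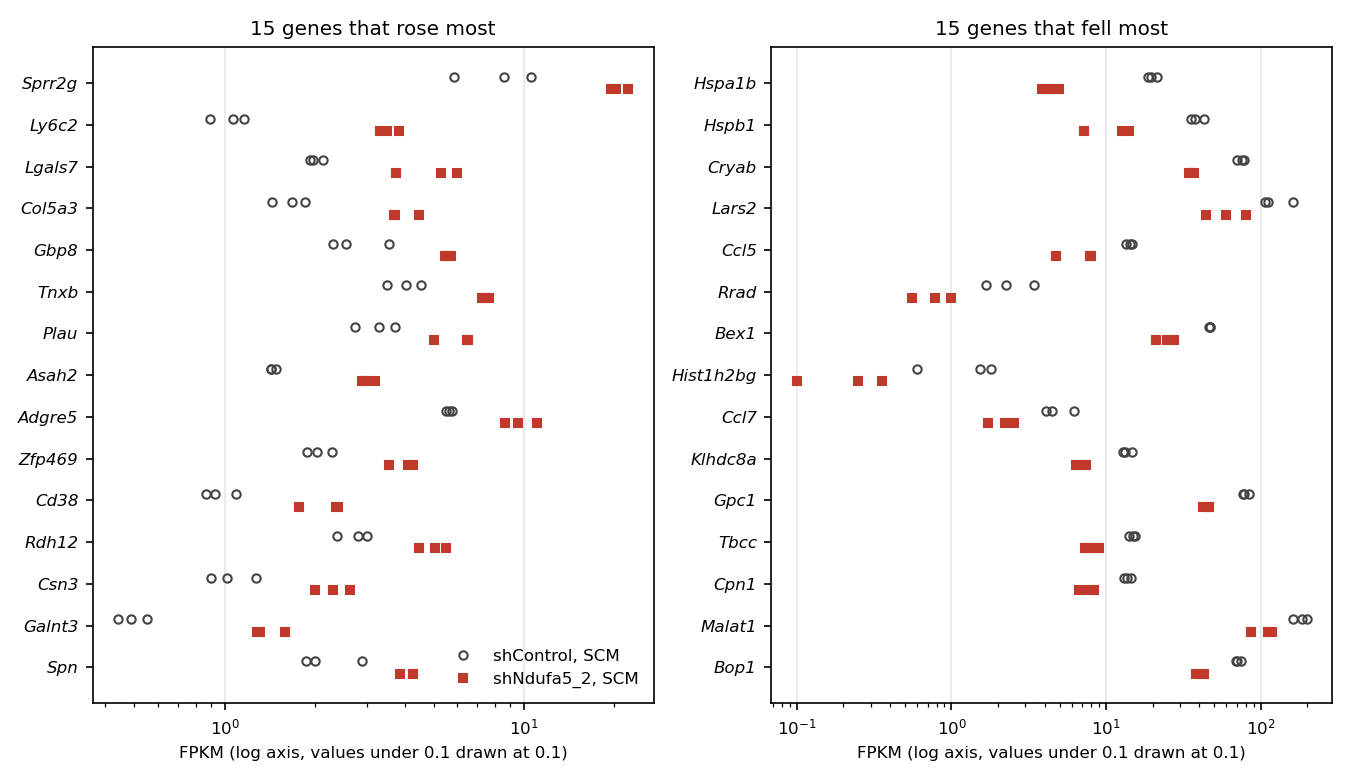
FPKM (log axis) in each of the 3 shControl (open circles) and 3 shNdufa5_2 (squares) libraries in SCM for the 15 largest rises and the 15 largest falls. Genes were chosen so that the groups do not overlap, and Hspa1b and Hspb1 show a wide gap between theirs. Hist1h2bg has 1 value under 0.1 FPKM, drawn at 0.1.

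The 3 named genes that fell most were cytosolic heat shock genes, whose products are chaperones that hold or refold damaged proteins. Of 17 tested members 12 fell and 3 rose, where 20.0% of all genes fell and 13.9% rose. Their median difference was -0.33 (6 lower and 5 higher under sum scaling). Hspa1b, an inducible Hsp70, stood at 21.3, 19.4 and 18.7 FPKM in the shControl libraries and at 4.25, 3.87 and 4.96 FPKM in those labelled shNdufa5_2, so that even the highest of these was far below every control. Its difference was -1.96 (SE 0.16, adjusted p = 7.34e-07). A near-identical copy, Hspa1a, lies beside it, and how reads were shared between them is not given in the sources used here.

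Hspb1, a small heat shock protein that holds unfolding proteins in solution, stood at 37.4, 35.4 and 43.1 FPKM in controls and at 7.21, 12.6 and 14.0 FPKM in the libraries labelled shNdufa5_2. The spread among the latter was wide, but none came near a control (-1.73, SE 0.19, adjusted p = 7.46e-06). Cryab, another small heat shock protein (alpha-B crystallin), stood at 76.2, 78.3 and 70.3 FPKM against 37.2, 35.4 and 34.6 FPKM, a fall of 1.05 (SE 0.06, adjusted p = 3.67e-08) with little spread in either group. The constitutive Hsp70 gene Hspa8 stood at 256, 261 and 251 FPKM against 185, 185 and 177 FPKM (-0.49, adjusted p = 1.13e-07). Hsph1, a nucleotide exchange factor of Hsp70, fell by 0.49 (adjusted p = 5.11e-07), the J-domain cofactor Dnajb1 by 0.43 (adjusted p = 6.03e-05), and the Hsp90 activator Ahsa1 by 0.50 (adjusted p = 1.32e-05). The members that rose were Hspa4l and Hspa4, Hsp70-like exchange factors, and the cofactor Dnajb4, by 0.24, 0.16 and 0.22. Hspa4l and Dnajb4 were not called without the trend with GC content and length described below (0.05 and 0.08), nor was Dnajb4 without shNdufa5_2_SCM replicate 2 (0.17, adjusted p = 0.0594).

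In PCM the 3 genes that fell furthest in SCM were not lower. Hspa1b had a mean of 1.27 FPKM with shControl and 3.09 FPKM in the libraries labelled shNdufa5_2 in PCM, and Hspb1 of 5.89 and 8.79 FPKM. Both rose there, by 0.84 (adjusted p = 0.000956) and 0.50 (adjusted p = 0.0450). Sum scaling left 139 genes called higher in PCM, and the PCM differences of Hspa1b and Hspb1 under it are not given here. Cryab was at 25.9 and 26.6 FPKM (adjusted p = 0.667). The hairpin difference in SCM minus that in PCM, tested in the same model, was -2.80 for Hspa1b (SE 0.23, adjusted p = 3.12e-07), -2.24 for Hspb1 (SE 0.26, adjusted p = 8.26e-06) and -1.08 for Cryab (SE 0.09, adjusted p = 2.19e-07). The means of the shNdufa5_2 libraries in SCM, 4.36, 11.2 and 35.7 FPKM, lay between the control means in PCM and in SCM for all 3 genes.

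**Figure D2:**
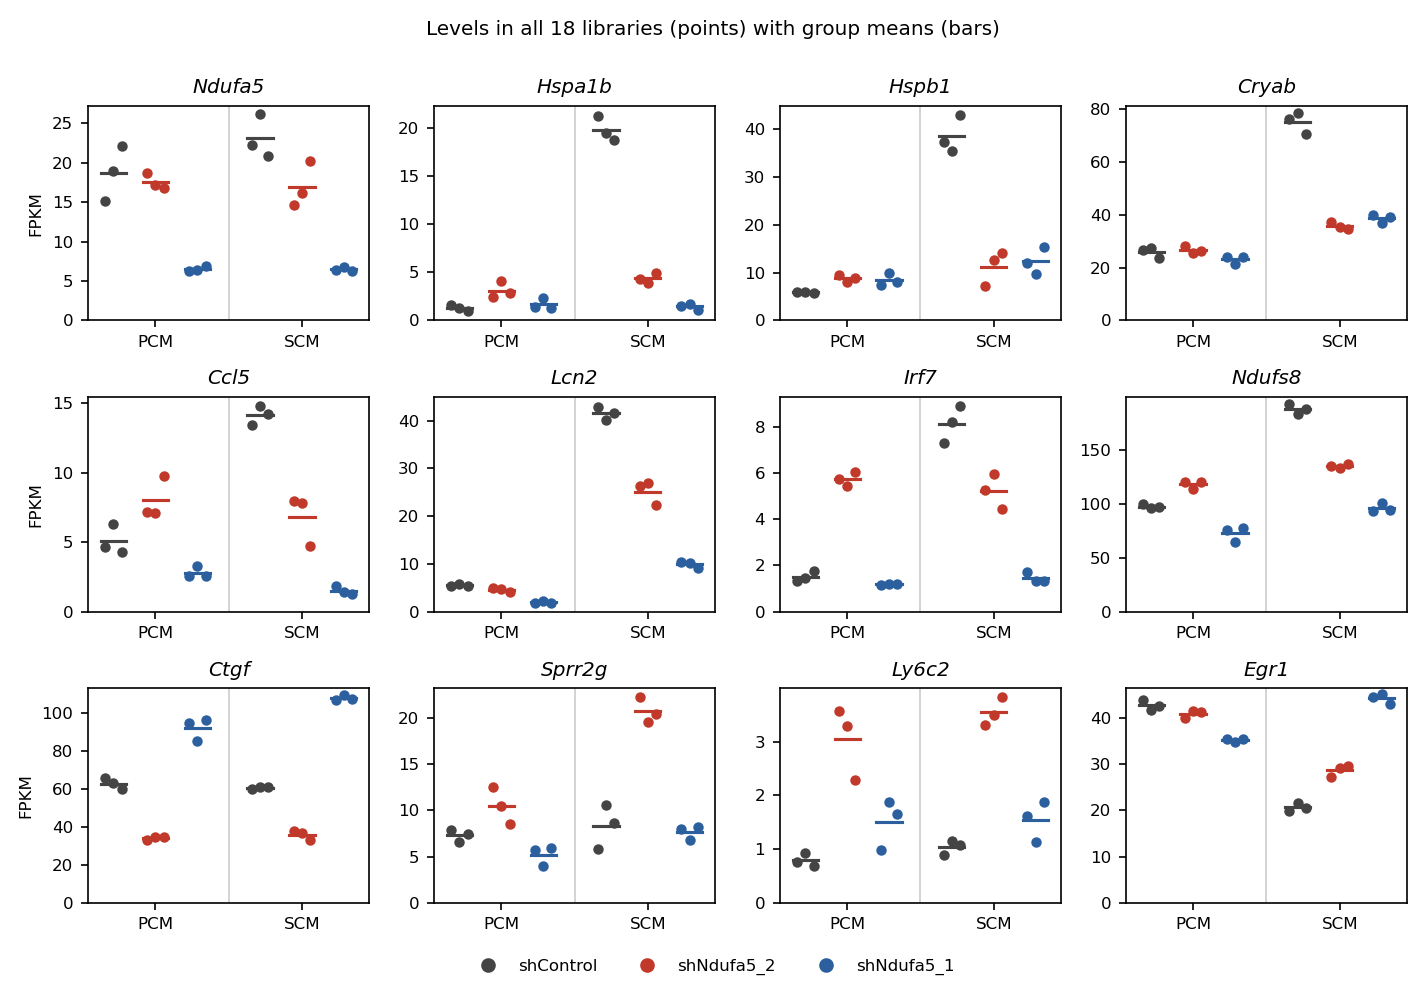
FPKM in every library (points) with the group mean (bar) for 12 genes, PCM on the left and SCM on the right of each panel, coloured by hairpin. Hspa1b, Hspb1 and Cryab are highest in the shControl libraries in SCM, while Ly6c2 is higher in the shNdufa5_2 libraries in both media.

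Inflammatory secretome genes, here chemokines, cytokines, acute phase proteins and NF-kB targets, fell as far as they changed. Of 35 listed genes 23 were expressed enough to be tested. Beside 20.0% of all genes lower and 13.9% higher, 13 of these fell, none rose, and the median was -0.29. Under sum scaling 4 were lower and 5 higher with a median of 0.00 (8 and 4 with Gm23935 left out), and without the GC and length trend 10 were lower and 2 higher. Il6, Il1a, Il1b and Cxcl1 were below the expression filter and are not judged here. Ccl5, which draws T cells and monocytes, stood at 13.5, 14.8 and 14.3 FPKM in controls and at 7.94, 7.86 and 4.75 FPKM in the libraries labelled shNdufa5_2. These groups were well apart, with a difference of -0.98 (SE 0.17, adjusted p = 0.000430). The monocyte chemokine Ccl7 stood at 6.22, 4.07 and 4.5 FPKM against 2.52, 1.72 and 2.22 FPKM (-0.90, SE 0.22, adjusted p = 0.00549), on 23 to 109 fragments a library.

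Cxcl10, the ligand of the T cell receptor Cxcr3 whose promoter is shown above, stood at 5.91, 4.2 and 7.19 FPKM in controls and 2.98, 3.23 and 2.71 FPKM in the libraries labelled shNdufa5_2. It fell by 0.75 (SE 0.19, adjusted p = 0.00610). Lcn2, a secreted protein that binds bacterial iron carriers, stood at 42.9, 40.1 and 41.6 FPKM against 26.2, 26.8 and 22.2 FPKM and fell by 0.71 (SE 0.08, adjusted p = 1.62e-05). In PCM its means were 5.54 FPKM with shControl and 4.61 FPKM in the libraries labelled shNdufa5_2. Vcam1, an adhesion receptor for leukocytes, and the chemokine gene Cxcl12 fell by 0.47 and 0.38, and both also fell in PCM, by 0.47 and 0.61.

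Interferon-stimulated genes, the antiviral effectors and signalling factors induced by interferon receptors, moved little as a list in SCM. Of 21 tested members 2 rose, 4 fell and 15 did not pass, and the median was 0.03, where 13.9% of all genes rose and 20.0% fell. Under sum scaling 9 members were higher and 1 lower (6 and 1 with Gm23935 left out). Their median was then 0.26, beside 0.23 for all genes. In PCM 16 of the 21 rose and none fell, with a median of 0.61, where 35.6% of all genes were called (19.3% higher, 16.3% lower). The hairpin difference was lower in SCM than in PCM for 15 of the 21 and higher for 1 (median -0.67, against 43.0% of all genes called in this test of the difference). Sum scaling changed the calls over all genes to 139 higher and 6315 lower in PCM, and to 7337 and 93 between media. The counts of this list under it are not given here for PCM or between media. Irf7, the transcription factor that amplifies type I interferon, stood at 7.29, 8.20 and 8.89 FPKM in the shControl libraries in SCM and at 5.25, 5.95 and 4.44 FPKM in those labelled shNdufa5_2. It fell by 0.56 (adjusted p = 0.000462) in SCM and rose by 1.43 (adjusted p = 8.61e-08) in PCM, where the means were 1.51 and 5.73 FPKM.

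Isg15, a ubiquitin-like modifier, stood at 15.5, 20 and 13.7 FPKM against 13.5, 11.9 and 10.3 FPKM in SCM. Its difference of -0.42 did not pass (adjusted p = 0.207, 95% interval -0.95 to 0.11), while in PCM it rose from 4.80 to 13.2 FPKM (1.27, adjusted p = 0.000953). Ifit2, an RNA-binding antiviral protein, went the other way and stood at 4.26, 4.40 and 5.21 FPKM against 6.99, 7 and 7.12 FPKM in SCM (0.52, adjusted p = 6.21e-05) with no call in PCM (-0.06, adjusted p = 0.563). Genes of MHC class I presentation had 1 of 15 higher and 4 lower, beside 13.9% and 20.0% of all genes. They were also near the median gene, with a median of 0.04. Under sum scaling 7 of them were higher and none lower, with a median of 0.31. H2-K1, a classical class I heavy chain, fell by 0.29 (adjusted p = 1.73e-05) and the immunoproteasome subunit Psmb10 by 0.48 (adjusted p = 0.00647). Under sum scaling H2-K1 came to 0.00, and Psmb10 was not called without the trend with GC content and length described below (-0.28, adjusted p = 0.102).

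Nuclear genes of the respiratory chain were lower together by small amounts. Over all genes tested, 20.0% fell and 13.9% rose. In complex I, 5 of 10 tested N module genes, 5 of 5 Q module genes and 13 of 19 membrane arm genes fell and none rose. Their medians were -0.22, -0.33 and -0.28. The Q module includes Ndufa5, the target of the hairpin. Quantile normalization left 5 membrane arm genes lower. Under sum scaling none of the 3 lists had a gene called lower, 2 N module genes were higher, and Ndufs8, Ndufv1, Atp5d and Uqcrc1, described next, were not called. Ndufs8, which carries iron-sulphur clusters in the Q module, stood at 193, 184 and 188 FPKM in controls and at 135, 134 and 137 FPKM in the libraries labelled shNdufa5_2, with hardly any spread within a group (-0.47, SE 0.05, adjusted p = 1.08e-05). Ndufv1, the flavin-bearing subunit that binds NADH, stood at 145, 149 and 135 FPKM against 104, 100 and 112 FPKM (-0.44, adjusted p = 3.59e-06). The membrane arm subunit Ndufa11 stood at 78.3, 76.0 and 70.8 FPKM against 52.2, 54.0 and 55.0 FPKM (-0.47, adjusted p = 0.00324, but -0.24 and adjusted p = 0.104 without the trend with GC content and length described below). All 3 falls were of the size of that of Ndufa5. Of 15 assembly factors, which build complex I but are no part of it, 4 fell and none rose. The share that fell was not far from the 20.0% of all genes. Ndufaf6 was among them and fell by 0.53 (adjusted p = 0.00199).

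Complexes II to V behaved alike, with 25 of 39 genes lower, none higher and a median of -0.25. Atp5d, a rotor subunit of ATP synthase, stood at 260, 253 and 258 FPKM against 186, 169 and 191 FPKM (-0.50, adjusted p = 4.90e-06). Uqcrc1, a core subunit of complex III, fell by 0.46 (adjusted p = 2.35e-07). The mRNAs encoded on mitochondrial DNA did not follow. Of 12 tested, mt-Nd2 alone fell (-0.23, adjusted p = 0.00156, but 0.04 under quantile and 0.06 under sum scaling), none rose and their median was 0.00. Quantile normalization gave 4 higher and none lower (median 0.15), and sum scaling 5 higher and none lower (median 0.30, or 0.17 without Gm23935). Among mitochondrial chaperones and proteases 8 of 14 fell and none rose (median -0.15), led by the protease Htra2 (-0.50, adjusted p = 0.000125). The TCA cycle had 8 of 19 lower, none higher and a median of -0.11, beside 20.0% lower and 13.9% higher over all genes.

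Cytosolic ribosomal protein genes fell by small amounts, 35 of 40 with none higher (20.0% of all genes lower, 13.9% higher). Their median was -0.26, with 1 lower and 2 higher under sum scaling and 2 lower and 4 higher under quantile normalization. Rps2 stood at 3069, 3276 and 3032 FPKM in controls and at 2281, 2203 and 2304 FPKM in the libraries labelled shNdufa5_2 (-0.47, SE 0.03, adjusted p = 2.26e-07). Bop1, a factor of large ribosomal subunit assembly, stood at 70.2, 74.7 and 69.5 FPKM against 38.4, 42.2 and 42.7 FPKM and fell by 0.78 (adjusted p = 7.09e-08). Under sum scaling the medians of the N module, membrane arm, complexes II to V and ribosomal lists turned to 0.07, 0.02, 0.04 and 0.04, all below the shifted median gene at 0.23, and quantile normalization put ribosomal proteins at 0.02. In PCM 38 of 40 ribosomal protein genes (median 0.48), 26 of 39 of complexes II to V (0.28) and 12 of 19 of the membrane arm (0.27) rose, with none lower. Of all genes 19.3% rose and 16.3% fell there. Sum scaling changed the PCM calls over all genes to 139 higher and 6315 lower, and the PCM counts of these lists under it are not given here.

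The difference in SCM ran along GC content and transcript length over the 11074 genes with an annotated transcript (Spearman rho -0.41 with GC content and 0.34 with exon length, across genes, which are not independent). Called genes that fell had a median GC content of 53.8% and a median exon length of 3117 bases, those that rose 44.9% and 6657 bases. Median GC content was 54.1% in the Q module, 52.1% in the membrane arm and 51.3% among ribosomal proteins, and 49.8% both in complexes II to V and over all genes tested. In PCM the relation with GC content had the opposite sign (rho 0.46). After removal of this trend the medians were -0.18 for the Q module, -0.17 for the membrane arm, -0.19 for complexes II to V and -0.13 for ribosomal proteins, with 4, 7, 16 and 23 genes still lower. The part of GC content in these results was not tested further. In bulk RNA, fewer cells with a transcript and less transcript per cell cannot be told apart.

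**Figure D3:**
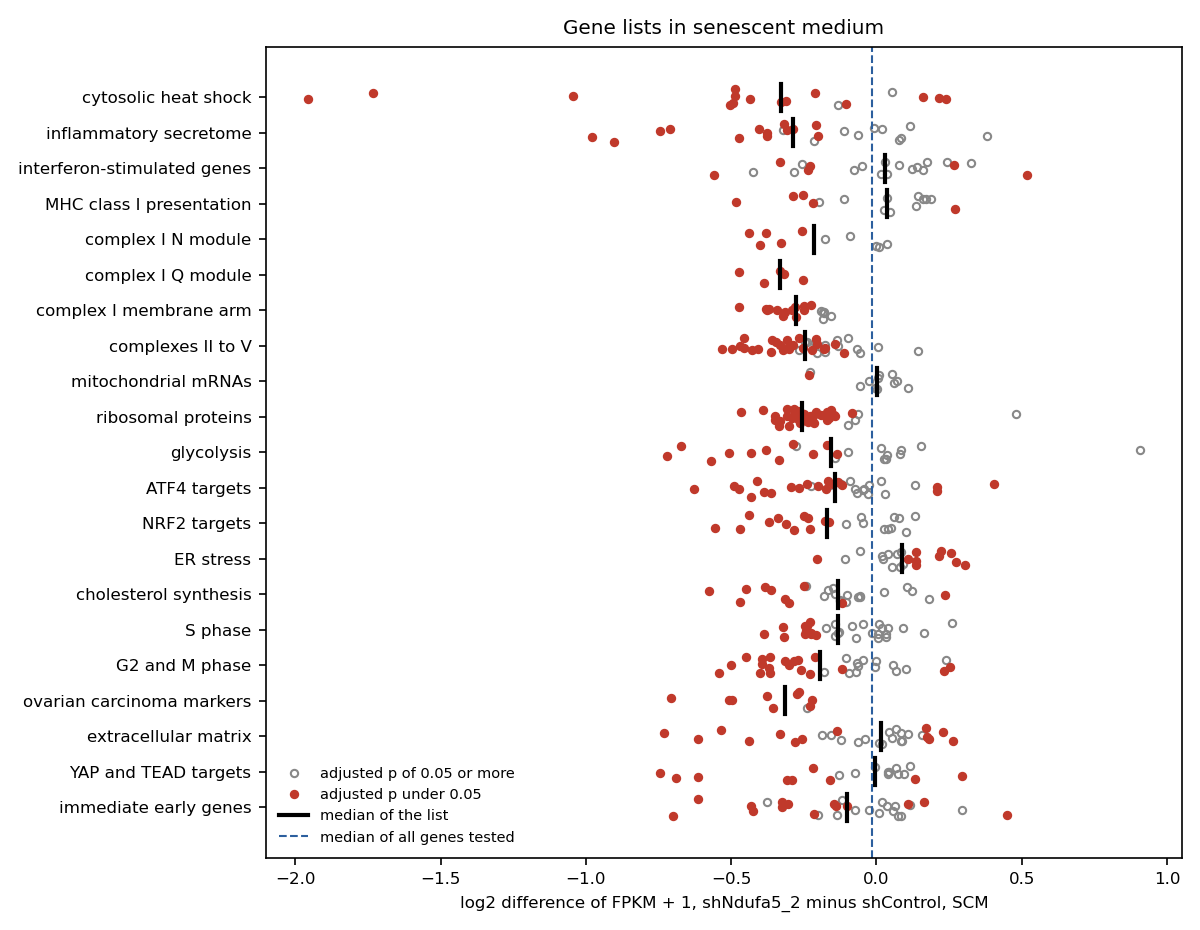
Log2 difference between shNdufa5_2 and shControl libraries in SCM for each tested gene (points, filled where adjusted p is under 0.05) of 21 gene lists, with the list median (black bar) and the median of all genes (dashed line, -0.01). Heat shock genes reach furthest to the left, and ribosomal proteins and respiratory complexes form narrow groups left of the line.

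Enzymes of central metabolism fell as well. In glycolysis 11 of 22 tested entries, from 21 listed gene names, were lower and none was called higher (median -0.16). Over all genes 20.0% were lower and 13.9% higher. Differences in the list ran from -0.72 to 0.91, the latter without a call. Pkm, pyruvate kinase, stood at 511, 531 and 498 FPKM in controls and at 311, 303 and 320 FPKM in the libraries labelled shNdufa5_2 (-0.72, SE 0.03, adjusted p = 1.58e-09). Eno1, enolase, stood at 347, 369 and 350 FPKM against 221, 220 and 227 FPKM (-0.67, SE 0.03, adjusted p = 1.15e-09). Tpi1, triose phosphate isomerase, fell by 0.51 (adjusted p = 3.67e-08). The groups were far apart for all 3 enzymes, while Hk1, the hexokinase at the head of the pathway, did not pass at means of 48.4 and 49.7 FPKM (0.04, adjusted p = 0.422), but was called higher under quantile normalization (0.14, adjusted p = 0.00728) and sum scaling (0.32, adjusted p = 0.00140).

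ATF4 targets, which include serine synthesis and amino acid response genes, had 16 of 32 lower and 3 higher (median -0.14). Over all genes 20.0% were lower and 13.9% higher. The serine pathway enzymes Psph, Phgdh and Shmt2 fell by 0.63 (adjusted p = 9.99e-07), 0.49 (adjusted p = 5.60e-08) and 0.47 (adjusted p = 1.15e-07). Phgdh stood at 843, 874 and 831 FPKM against 617, 589 and 609 FPKM. NRF2 targets, the antioxidant genes, had 12 of 22 lower, none higher (median -0.17), with Gstm1, a glutathione transferase, down by 0.56 (adjusted p = 5.38e-07) and the ferritin light chain Ftl1 by 0.47 (adjusted p = 2.35e-07). In cholesterol synthesis 9 of 26 fell and 1 rose (median -0.13). Tm7sf2, Pmvk and Acat2 fell by 0.58, 0.47 and 0.45, whereas Hmgcs1, near the head of the pathway, did not pass (0.12, adjusted p = 0.143). Under sum scaling the medians of glycolysis, ATF4, NRF2 and cholesterol genes became 0.13, 0.15, 0.12 and 0.13, again under the shifted median gene, with 3, 3, 2 and 0 genes lower and 7, 12, 7 and 8 higher.

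The ER chaperones ran against the cytosolic ones. Of 20 tested ER stress genes 9 rose and 1 fell, beside 13.9% and 20.0% of all genes, with a median of 0.09. The cochaperone Dnajc3 stood at 15.1, 15.1 and 14.8 FPKM in controls and at 19.4, 18.6 and 18.5 FPKM in the libraries labelled shNdufa5_2 (0.31, adjusted p = 8.13e-05). Dnajb9 rose by 0.28 (adjusted p = 0.00838), the disulphide isomerase Pdia3 by 0.26 (adjusted p = 2.79e-05) and the ER Hsp90 gene Hsp90b1 by 0.22 (adjusted p = 0.00112). Hspa5, the main Hsp70 of the ER, differed by 0.02 (adjusted p = 0.449), but was called higher under quantile normalization (0.25, adjusted p = 0.000214) and sum scaling (0.32, adjusted p = 0.00241). Of the list, 17 genes were higher under the former and 18 under the latter, with none lower.

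Genes of the dividing cell were lower in part, where 20.0% of all genes fell and 13.9% rose. In the list for G2 and M phase 17 of 32 fell and 2 rose (median -0.19), and in the S phase list 11 of 30 fell and none rose (median -0.13). Ccnb1, the mitotic cyclin, stood at 36.6, 38.4 and 37.5 FPKM in controls and at 26.2, 25.8 and 24.5 FPKM in the libraries labelled shNdufa5_2 (-0.54, adjusted p = 1.41e-06). The survivin gene Birc5, the mitotic activator Cdc20 and the kinase Plk1 fell by 0.50, 0.45 and 0.40. Of the S phase genes, Gins2 and Mcm2, parts of the replicative helicase, fell by 0.39 (adjusted p = 0.00152) and 0.32 (adjusted p = 1.13e-05). Among 19 p53 targets 2 rose and 2 fell (median 0.02), Mdm2 by 0.25 upward and Bax by 0.29 downward (Bax -0.04 without the GC and length trend). Sum scaling put the medians of the 2 cell cycle lists at 0.09 and 0.15, with 1 and 0 genes lower and 9 and 10 higher.

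Of 10 tested markers of the carcinoma itself 9 fell and none rose, where 20.0% of all genes fell and 13.9% rose. Their median was -0.31 (2 lower and none higher under sum scaling). Krt19 stood at 426, 444 and 400 FPKM in controls and at 262, 261 and 253 FPKM in the libraries labelled shNdufa5_2 (-0.71, SE 0.04, adjusted p = 5.60e-08). Krt8 fell by 0.51 (adjusted p = 1.13e-07) and Krt18 by 0.38 (adjusted p = 5.24e-06). Pax8 stood at 15.3, 12.9 and 13.4 FPKM against 9.49, 9.43 and 9.60 FPKM (-0.50, adjusted p = 1.16e-05), with no overlap. Summed over 15 markers of this list the level was 1953 to 2057 FPKM in the control libraries and 1460 to 1550 FPKM in those labelled shNdufa5_2. Of 14 tested mesenchymal genes 5 rose and 2 fell (median 0.04), with Zeb2, a repressor of epithelial genes, up by 0.26 and Twist1 down by 0.30. Neither was called without the GC and length trend (0.03 and -0.07). Fibroblast markers summed to 65.5 to 65.7 FPKM in controls and 55.1 to 57.9 FPKM in the libraries labelled shNdufa5_2, and 2 of the 10, Thy1 and Mfap5, were at 0 in all 6 libraries. Gsn made up most of that sum (61.5 to 61.9 against 49.4 to 52.9 FPKM), while Dcn stood at 1.39 to 1.78 FPKM in controls and at 2.41 to 2.97 FPKM in the libraries labelled shNdufa5_2. Of the 3 fibroblast markers tested 1 was called higher and 1 lower.

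Matrix genes moved in both directions, 5 of 28 higher and 8 lower (median 0.01), shares not far from the 13.9% and 20.0% of all genes. Under sum scaling 14 were higher and 3 lower. Sparc, a collagen-binding matrix protein, stood at 201, 208 and 208 FPKM in controls and at 127, 120 and 123 FPKM in the libraries labelled shNdufa5_2 (-0.73, SE 0.03, adjusted p = 5.16e-10). Loxl2, which crosslinks collagen, fell by 0.61 (adjusted p = 0.000161), Col6a2 by 0.53 and Col6a1 by 0.44. Outside this list Col5a3, a minor fibrillar collagen chain, stood at 1.85, 1.44 and 1.68 FPKM against 3.68, 4.46 and 3.71 FPKM and rose by 0.90 (SE 0.11, adjusted p = 2.99e-05). Tnxb, tenascin X, rose by 0.76 (adjusted p = 5.62e-06). Gpc1, a cell surface heparan sulphate proteoglycan, stood at 77.2, 84.4 and 78.4 FPKM against 46.1, 42.3 and 46.4 FPKM and fell by 0.82 (adjusted p = 3.67e-08).

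In the urokinase system, which activates plasmin at the cell surface, the protease and an inhibitor rose while other members fell. Plau, urokinase, stood at 3.27, 2.73 and 3.70 FPKM in controls and at 6.50, 6.45 and 5 FPKM in the libraries labelled shNdufa5_2 (0.72, SE 0.10, adjusted p = 4.71e-05). Serpinb2, which inhibits it, stood at 6.93, 7.56 and 6.05 FPKM against 13.5, 11.4 and 7.90 FPKM, a rise of 0.58 (adjusted p = 0.00625) with a wide spread. In all, 2 of 13 genes of the urokinase and serpin list rose and 7 fell (median -0.12, and 0.14 under sum scaling). Over all genes 13.9% rose and 20.0% fell. Of 18 integrin and adhesion genes 7 rose and 7 fell (median 0.06, and -0.12 among those with a mean of at least 5 FPKM), Alcam by 0.49 upward and Zyx by 0.42 downward.

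YAP and TEAD targets, genes controlled through the Hippo pathway, were mixed as a list (2 of 19 higher, 7 lower, median -0.00). Of all genes 13.9% rose and 20.0% fell. Under sum scaling 9 of the list were higher and 3 lower. The classical readouts Ctgf and Cyr61 were lower. Ctgf stood at 60.2, 60.9 and 61.1 FPKM in controls and at 38.1, 36.6 and 32.9 FPKM in the libraries labelled shNdufa5_2 (-0.74, SE 0.05, adjusted p = 1.53e-07). Cyr61 stood at 302, 307 and 305 FPKM against 193, 209 and 194 FPKM (-0.62, adjusted p = 1.10e-07). Amotl2 fell by 0.31 (but -0.02 and adjusted p = 0.781 under sum scaling). The stress gene Gadd45b fell by 0.69 (adjusted p = 8.79e-07). HIF targets barely moved, with 2 of 17 higher, 1 lower and a median of 0.02 (10 higher and none lower under sum scaling). Hif1a, the oxygen-sensing factor itself, though, rose by 0.34 (adjusted p = 1.62e-05).

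Immediate early genes, the first transcripts after growth factor stimulation, were split, 3 of 29 higher and 11 lower (median -0.10, but 0.19 under sum scaling and 0.02 without the GC and length trend). The shares over all genes, for this and the lists that follow, were 13.9% higher and 20.0% lower. Egr1 stood at 19.9, 21.7 and 20.6 FPKM in controls and at 27.2, 29.3 and 29.5 FPKM in the libraries labelled shNdufa5_2 (0.45, SE 0.04, adjusted p = 8.89e-07). Jund stood at 44.9, 55.3 and 55.8 FPKM against 33.6, 31.9 and 29.1 FPKM (-0.70, adjusted p = 1.16e-05), and Atf3 fell by 0.43. Of 14 genes of MAPK feedback and output 4 rose and 5 fell (median -0.02), with the ERK phosphatase Dusp5 down by 0.64 (adjusted p = 1.87e-07) and the receptor signalling inhibitor Spry2 up by 0.46 (adjusted p = 0.00249). Of 8 EGF family ligands, receptors and regulators 3 rose and none fell (median 0.08), the ligands Tgfa by 0.37 and Hbegf by 0.26 among them. SR splicing factors, which choose exons, had 2 of 12 higher and 4 lower (median -0.06, 0.22 under sum scaling): Srsf3 stood at 19.9, 20.6 and 20.5 FPKM against 27.5, 26.4 and 25.8 FPKM (0.37, adjusted p = 1.34e-05), and Srsf2 fell by 0.45.

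Genes that rose most were largely of low or moderate level. Sprr2g, a structural protein of the epidermal cornified envelope, stood at 5.83, 10.6 and 8.59 FPKM in controls and at 22.3, 19.5 and 20.4 FPKM in the libraries labelled shNdufa5_2 (1.25, SE 0.17, adjusted p = 5.87e-05). Ly6c2, a surface protein best known from myeloid cells, stood at 0.896, 1.16 and 1.07 FPKM against 3.31, 3.5 and 3.84 FPKM (1.15, SE 0.15, adjusted p = 3.92e-05). The galectin gene Lgals7 stood at 1.93, 1.98 and 2.14 FPKM against 5.27, 3.74 and 6 FPKM (0.97, SE 0.21, adjusted p = 0.00218). The groups did not overlap for any of the 3 genes. On this scale the added 1 FPKM makes the change of such low genes look smaller than the ratio of their FPKM values.

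Gbp8, an interferon-inducible GTPase, rose by 0.81, the ceramidase Asah2 by 0.71, the adhesion receptor Adgre5 by 0.70, the NAD-consuming ectoenzyme Cd38 by 0.69 and the O-glycosylation enzyme Galnt3 by 0.68. Zfp469 and Rdh12, a retinol dehydrogenase, rose by 0.69 each, Csn3, a casein, by 0.68 and Spn, a sialylated surface mucin, by 0.67. Adjusted p ran from 7.74e-05 (Asah2, Zfp469) to 0.00277 (Csn3). Ly6c2, Spn and Cd38 are also expressed by blood cells. The 10 immune cell markers summed to 12 to 14.5 FPKM in controls and 13.5 to 16.2 FPKM in the libraries labelled shNdufa5_2, nearly all of it Cd14 and Cd68, and their part in these results was not tested.

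The other genes that fell most were Rrad, a small GTPase-like inhibitor of calcium channels (2.45 to 0.778 FPKM in mean, -0.93), and Bex1, an adaptor protein (46.9 to 24.4 FPKM, -0.92, adjusted p = 7.87e-07). Klhdc8a fell by 0.86, the tubulin cofactor Tbcc by 0.80 and the carboxypeptidase subunit Cpn1 by 0.80. Hist1h2bg, a replication-dependent histone, stood at 1.81, 1.54 and 0.596 FPKM against 0.00, 0.357 and 0.250 FPKM, too near 0 for a fold, and histone genes have near-identical copies. The nuclear noncoding RNA Malat1 stood at 198, 163 and 184 FPKM against 86.3, 118 and 111 FPKM (-0.79, adjusted p = 0.000492). Lars2, the mitochondrial leucyl-tRNA synthetase gene, stood at 111, 163 and 106 FPKM against 44.3, 80.5 and 59.6 FPKM (-1.04, SE 0.33, adjusted p = 0.0170). Its call was lost without shControl_SCM replicate 2 (-0.85, adjusted p = 0.0795) or shNdufa5_2_SCM replicate 1 (-0.83, adjusted p = 0.0773). Lars2 was also not called under quantile normalization (-0.82, adjusted p = 0.0645) or with no filter on low values (-1.04, adjusted p = 0.0542). The 6 libraries stood in the same order for Lars2 as for Gm23935 and CT010467.1 (1574, 2061 and 1456 FPKM against 574, 1024 and 798 FPKM), and their part in the Lars2 value was not tested.

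The difference found in SCM was for many genes the reverse of that in PCM. The PCM comparison of the same hairpin pair shares no library with it, and called 3947 of 11084 genes (35.6%). Of the 2213 genes that fell in SCM, 919 rose in PCM (41.5% of the SCM list and 43.0% of the PCM list). Of the 1545 that rose in SCM, 585 fell in PCM (37.9% and 32.3%). Only 220 fell and 178 rose in both media (9.94% and 11.5% of the SCM lists). Across genes the differences in both media correlated at r = -0.24 and had the same sign for 37.7%. The hairpin difference itself differed between media for 4768 genes (43.0%), 2096 upward in SCM (18.9%) and 2672 downward (24.1%). The direction was that of the SCM call for 1124 genes that rose (72.8%) and 1716 that fell (77.5%). The test contains the SCM difference that made those calls, so these shares were largely set by the choice of genes. After removal of the GC and length trend this test called 2952 genes.

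**Figure D4:**
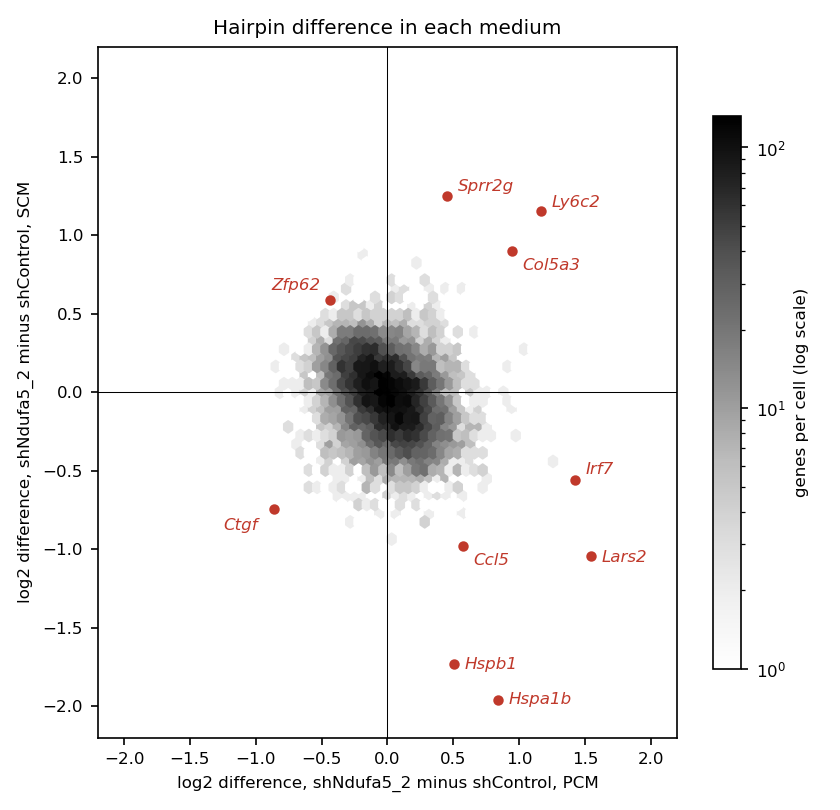
Log2 difference between shNdufa5_2 and shControl libraries in PCM (x axis) and in SCM (y axis) for the 11084 tested genes, shaded by number of genes on a log scale, with 10 genes marked. The cloud leans toward opposite signs, while Ly6c2 and Col5a3 lie at upper right and Ctgf at lower left.

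Some of the named genes had a like difference in both media. Those given here are examples and not all the named genes for which the test between media did not pass. Ly6c2 rose by 1.15 in SCM and 1.17 in PCM, Col5a3 by 0.90 and 0.94 and Plau by 0.72 and 0.69, and the test of the difference between media did not pass for any of them (adjusted p = 0.969, 0.847 and 0.888). Ctgf fell by 0.74 and 0.86, Cyr61 by 0.62 and 0.50, Loxl2 by 0.61 and 0.54 and Atf3 by 0.43 and 0.46, also with no difference that passed (adjusted p = 0.217, 0.115, 0.700 and 0.811). These p-values do not show that the differences are equal. For Ctgf the interval of the difference between media was -0.04 to 0.27.

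At the other extreme, the most negative differences between media after Hspa1b (-2.80) were Lars2 (-2.59), Hspb1 (-2.24), Irf7 (-1.98), Isg15 (-1.70) and Ccl5 (-1.55). Ccl5 fell in SCM and rose by 0.57 in PCM. The most positive were Filip1l (1.09), Zfp938 (1.08), Zfp62 (1.02), Wsb1 (1.00), Mex3c (0.98) and Zfp960 (0.97), of which Wsb1 and Mex3c encode ubiquitin ligase subunits and the Zfp genes zinc finger proteins. Zfp62 stood at 3.07, 3.15 and 2.43 FPKM in shControl and 5.11, 4.94 and 4.41 FPKM in the shNdufa5_2 libraries in SCM. There it rose by 0.59 (adjusted p = 0.000161), and in PCM it fell by 0.44 (adjusted p = 0.00148). Filip1l did not pass in SCM (0.17, adjusted p = 0.0810) and fell by 0.92 in PCM.

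The 2 hairpins could be compared directly in SCM, where 5971 of 11084 genes (53.9%) differed, 3029 higher (27.3%) and 2942 lower (26.5%) with shNdufa5_2. Against the shControl libraries, which both hairpin comparisons share, shNdufa5_1 gave 6631 calls (59.8%), 3181 higher (28.7%) and 3450 lower (31.1%). Ndufa5 was 1.25 higher with shNdufa5_2 than with shNdufa5_1 (adjusted p = 3.78e-07). Some heat shock genes were at a like level with either hairpin: Hspb1 had means of 11.2 and 12.4 FPKM (-0.15, 95% interval -0.54 to 0.25) and Cryab of 35.7 and 38.7 FPKM (-0.11, -0.24 to 0.02). Hspa1b, in contrast, stood 1.13 higher with shNdufa5_2 (4.36 against 1.46 FPKM, adjusted p = 2.93e-05).

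Some genes that fell with shNdufa5_2 stood further from the control, or on its other side, with shNdufa5_1. Ccl5 had a mean of 1.51 FPKM with shNdufa5_1 and was 1.62 higher with shNdufa5_2 (adjusted p = 8.13e-07). Lcn2 was 1.26 higher, Irf7 1.34 higher and Gadd45b 1.68 higher. Ccl7 was 1.59 lower and Ctgf 1.56 lower with shNdufa5_2, since they stood at 8.46 and 108 FPKM with shNdufa5_1 and at 4.93 and 60.7 FPKM in controls. Among lists, ribosomal proteins were higher with shNdufa5_2 for 38 of 40 genes (median 0.57), membrane arm genes for 16 of 19 (0.36) and interferon-stimulated genes for 17 of 21 (0.70), with none lower. Over all genes 27.3% were higher and 26.5% lower.

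Other large differences between the hairpins were in genes that did not pass between shNdufa5_2 and control. Car6, a secreted carbonic anhydrase, stood at 14.0, 15.6 and 14.5 FPKM in controls and at 12.8, 18 and 14.4 FPKM in the shNdufa5_2 libraries (0.02, adjusted p = 0.902), but at a mean of 2.65 FPKM with shNdufa5_1, a difference of 2.14. The ER protein Sdf2l1, the lysosomal protein Cd68, the actin regulator Avil and the mitochondrial protein Chchd10 were 1.95, 1.86, 1.79 and 1.76 higher with shNdufa5_2 than with shNdufa5_1. Ndufa12 was 1.76 higher too (adjusted p = 0.0200), with no call without shNdufa5_1_SCM replicate 1 or 2 (1.61 and 1.62) or shNdufa5_2_SCM replicate 1 or 2 (1.68 and 1.59). Its replicates were uneven (50.8, 58 and 31.7 FPKM with shNdufa5_2 and 69.3, 76.8 and 17.0 FPKM in controls). On the other side Ly6g, Tppp3, Nptx1 and the chemokine scavenger Ackr3 were 2.29, 1.74, 1.68 and 1.49 lower with shNdufa5_2.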

How the data were processed

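PolyA RNA of KPCA.B cells was sequenced in 18 libraries, 3 for each of 6 groups of hairpin and medium, taken from the labels. The authors deposited FPKM values per gene. The submitters' processing notes list STAR 2.6.1, DESeq2, GRCm38 and mm10, while the counter, gene lengths, strand setting and FPKM denominator were not given in the sources used here, so overlapping, antisense and near-identical genes are uncertain. Depth was recovered from low FPKM values, 99.5 to 99.8% of which were whole multiples of 1 fragment per library (within 0.1, among values of at most 20 fragments), and came to 13.7 to 38.7 M fragments over the 18 libraries.

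Values were tested as log2(FPKM + 1) with limma 3.58.1 (R 4.3.3): 1 coefficient per group over 18 libraries, moderated variances with a trend on the mean, a filter that kept genes averaging 1 FPKM or more, two-sided tests with Benjamini-Hochberg adjustment over all 11084 genes, and calls at an adjusted p under 0.05. The scale understates changes of low genes. The fit was tested on simulated data. Intervals are 95%.

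Named genes are Ndufa5, the 15 highest and 15 lowest differences in SCM among called genes whose groups do not overlap (clone and model names passed over), up to 4 called members per gene list with others needed by role, and the 6 highest and 6 lowest for the test between media and for the comparison of hairpins. Col5a3 and other genes of these ranks stand outside the lists, and an item the rule would name is not reported here. The members and lists were chosen with earlier results of these data known. Alternatives were a pseudocount of 0.1, no filter, a filter at 5 FPKM, quantile normalization, sum scaling, the groups of the contrast alone, a replicate block, each library left out, and removal of the trend with GC content and length from GENCODE M21. Promoters came from the RefSeq table of GRCm38.p6.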

Additional observations from a re-analysis of the deposited data

Results flagged for a closer look

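For 91 of the genes described above, the difference between the libraries labelled shNdufa5_2 and those with shControl was not the same in SCM as in PCM, by the test of the difference in the same limma model (adjusted p under 0.05, where 43.0% of all genes tested passed). The values below are the log2 difference in SCM minus that in PCM, so a negative value is a hairpin difference that was lower in SCM. Each rests on 12 libraries. Most of these genes were named for a call in SCM or for their rank in this same test, which favours passing it. Their number is therefore not to be set against the share of all genes.

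Among cytosolic chaperones the values were -2.80 for Hspa1b, -2.24 for Hspb1, -1.08 for Cryab, -0.72 for Hspa8, -0.65 for Ahsa1, -0.46 for Dnajb1 and -0.19 for Hsph1. Hspa4, Hspa4l and Dnajb4 had values of 0.49, 0.44 and 0.41. The ER stress genes that rose in SCM had 0.59 (Dnajc3), 0.50 (Dnajb9), 0.26 (Pdia3) and 0.24 (Hsp90b1), but over that list of 20 genes 5 were higher and 9 lower in this test, with a median of -0.08.

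Of the immune signalling genes described, these were lower: Irf7 at -1.98, Isg15 at -1.70, Ccl5 at -1.55, Cxcl10 at -1.17, Psmb10 at -0.89, Lcn2 at -0.48 and H2-K1 at -0.47. Ifit2 and Gbp8 were the interferon-inducible genes among them with positive values, 0.58 and 0.59, and Cxcl12 had 0.24. Over whole lists, 15 of 21 interferon-stimulated genes were lower and 1 higher, while the 23 inflammatory secretome genes were split, 5 higher and 6 lower with a median of 0.04. Over all genes tested 18.9% were higher and 24.1% lower.

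Genes of the respiratory chain, mitochondria and ribosome had -0.99 for Atp5d, -0.97 for Ndufa11, -0.92 for Rps2, -0.83 for Bop1, -0.77 for Ndufv1, -0.77 for Uqcrc1, -0.75 for Ndufs8, -0.75 for Ndufaf6, -0.43 for Htra2 and -0.34 for mt-Nd2. The ferritin light chain gene Ftl1 had -1.09, and metabolic enzymes had -0.87 for Acat2, -0.79 for Tm7sf2, -0.76 for Tpi1, -0.73 for Phgdh, -0.68 for Psph, -0.68 for Gstm1, -0.61 for Shmt2, -0.52 for Pkm, -0.48 for Pmvk, -0.33 for Eno1 and -0.22 for Hk1.

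Cell cycle genes and p53 targets had values of -0.81 for Birc5, -0.73 for Plk1, -0.60 for Gins2, -0.59 for Ccnb1, -0.56 for Cdc20, -0.50 for Mcm2 and -0.39 for Bax, against 0.38 for Mdm2. Carcinoma markers stood at -0.94 for Krt19, -0.56 for Krt18, -0.54 for Krt8 and -0.39 for Pax8. Matrix, adhesion, serpin and mesenchymal genes were split, with Col6a2 at -0.59, Gpc1 at -0.55, Sparc at -0.54 and Zyx at -0.34, and with Serpinb2 at 0.53, Zeb2 at 0.54, Alcam at 0.40 and Tnxb at 0.34.

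Growth factor and stress response genes were split as well: Jund at -0.61, Gadd45b at -0.45 and Dusp5 at -0.38, and Spry2 at 0.64, Egr1 at 0.51 and Hbegf at 0.35. Hif1a had 0.69 and the splicing factor Srsf3 0.89. The other genes that rose in SCM had 0.80 for Sprr2g, 0.68 for Zfp469, 0.64 for Cd38 and 0.44 for Asah2. Filip1l, Zfp938, Zfp62, Wsb1, Mex3c and Zfp960 had 1.09, 1.08, 1.02, 1.00, 0.98 and 0.97. The other genes that fell had -2.59 for Lars2, -1.08 for Malat1, -0.95 for Bex1, -0.91 for Tbcc, -0.86 for Hist1h2bg, -0.74 for Cpn1 and -0.29 for Klhdc8a.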

How the results depend on the processing

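The direction of a small difference depended on how libraries were scaled. Sum scaling changed the SCM calls to 4753 higher and 184 lower (3751 and 792 with Gm23935 left out, an alternative added after seeing the data), the PCM calls to 6454 in all, 139 higher and 6315 lower (736 and 4282), the test between media to 7430 in all, 7337 higher and 93 lower (5109 and 771), and the comparison of hairpins to 1652 higher (1700, with 4725 lower). Quantile normalization left 1273 lower in SCM and 1729 lower between media. A fit of the 6 SCM libraries alone called 885 higher. Removal of the GC and length trend left 2952 calls between media, 1182 higher and 1770 lower. Leaving out 1 library at a time gave 1200 to 1437 higher and 1751 to 2014 lower in SCM, lowest without shControl_SCM replicate 2.

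Ndufa5 lost its call under sum scaling (-0.15, or -0.27 without Gm23935) and without the GC and length trend (-0.32), and ran from -0.56 to -0.33 with 1 library left out. Sum scaling turned list medians to 0.07 for the complex I N module, 0.02 for the membrane arm, 0.08 for assembly factors, 0.04 for complexes II to V, 0.14 for mitochondrial chaperones and proteases, 0.04 for ribosomal proteins, 0.13 for glycolysis, 0.17 for the TCA cycle, 0.15 for ATF4 targets, 0.12 for NRF2 targets, 0.13 for cholesterol synthesis, 0.15 for S phase, 0.09 for G2 and M phase, 0.19 for immediate early genes, 0.22 for SR splicing factors and 0.14 for the urokinase system and serpins. With Gm23935 left out of the sum, those still turned were mitochondrial chaperones and proteases 0.01, glycolysis 0.01, TCA cycle 0.05, ATF4 targets 0.02, cholesterol synthesis 0.02, S phase 0.03, immediate early genes 0.06, SR splicing factors 0.10 and the urokinase system and serpins 0.03. Quantile normalization turned mitochondrial chaperones and proteases (0.04), ribosomal proteins (0.02) and ATF4 targets (0.03), removal of the GC and length trend turned immediate early genes (0.02), and the stricter filter turned integrins and adhesion (-0.12). The cause was not tested.

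Single genes changed less: mt-Nd2 turned to 0.04 under quantile normalization and 0.06 under sum scaling, H2-K1 to 0.00 under sum scaling, Hspa5 to -0.01 without the GC and length trend, and Car6 ran from -0.10 upward with 1 library left out. Of 140 gene results, 136 kept direction and call under quantile normalization, 132 without the GC and length trend and 105 under sum scaling.

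With the replicate number as a block, 1489 genes were higher and 2175 lower in SCM, Ndufa5 stood at -0.43 (adjusted p = 0.0128), and all 140 gene results kept direction and call. Deviations of same-numbered SCM libraries correlated at 0.02, -0.04 and 0. These values over all genes showed no pairing, but a shared culture or day with a small effect could be missed. With 3 libraries a group, no outlier check was made.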
